A study of Mus musculus with 6 samples.

Results

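The platelet-derived growth factor (PDGF) receptors and ligands measured here are 5 genes: the receptors Pdgfra and Pdgfrb and the ligands Pdgfa, Pdgfb and Pdgfc. Members were chosen by name, as every probe set whose array annotation gives exactly 1 of these symbols, and Kdr was taken beside them as the marker of the other mesoderm fate. This gave 11 probe sets of the 34945 tested: 3 for Pdgfra and 2 for each of the other 4 genes. Kdr had 1 probe set. The RNA came from embryonic stem (ES) cells of the mouse line ER71 A17C, of 129P2/Ola background, which holds an Etv2 gene that doxycycline switches on. The cells were grown as embryoid bodies, aggregates in which ES cells differentiate, in hanging drops, and cells carrying the Flk1 protein were sorted on day 3.5. In the induced group, 0.5 microg/ml doxycycline was present from day 3 on, for 12 hours, and the controls got no doxycycline, with 3 arrays in each group. Both groups carry the cassette and both passed the Flk1 gate, and all cells come from 1 line. The titles and genotype labels separate the groups, although the treatment field names doxycycline on every sample.

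PDGF ligands are secreted as disulfide-linked dimers that bring together 2 receptor chains, whose tyrosine kinase domains then phosphorylate each other and recruit signalling proteins. PDGFRα, the product of Pdgfra, binds ligands made from PDGF-A, PDGF-B and PDGF-C chains, while PDGFRβ, from Pdgfrb, prefers PDGF-B. In early mesoderm, PDGFRα marks the paraxial lineage that makes somites and also the cells of the cardiac lineage, while Flk1, the VEGF receptor encoded by Kdr, marks the mesoderm that makes blood and endothelium. Many nascent mesoderm cells carry both proteins before the fates part. In later vessels, endothelial cells make PDGF-B and pericytes carry PDGFRβ. Etv2, an ETS-family transcription factor that recognises DNA around a GGAA core, is needed for blood and endothelium.

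The promoters of Pdgfra and Kdr are shown because the RNA levels of these 2 genes moved together over the arrays and because the induced factor binds a GGAA core. Each sequence is the 250 bases before the annotated start of transcription, taken from RefSeq (GRCm38.p6), 5′ to 3′ along the gene, with GGAA or its reverse complement TTCC in capitals. The Pdgfra window is chr5:75152001-75152250 on the plus strand and the Kdr window is chr5:75978456-75978705 on the minus strand.
Pdgfra: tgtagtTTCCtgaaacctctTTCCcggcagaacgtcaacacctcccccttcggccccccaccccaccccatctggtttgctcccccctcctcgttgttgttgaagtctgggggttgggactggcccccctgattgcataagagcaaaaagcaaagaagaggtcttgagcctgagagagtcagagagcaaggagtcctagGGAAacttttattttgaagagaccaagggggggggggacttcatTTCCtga
Kdr: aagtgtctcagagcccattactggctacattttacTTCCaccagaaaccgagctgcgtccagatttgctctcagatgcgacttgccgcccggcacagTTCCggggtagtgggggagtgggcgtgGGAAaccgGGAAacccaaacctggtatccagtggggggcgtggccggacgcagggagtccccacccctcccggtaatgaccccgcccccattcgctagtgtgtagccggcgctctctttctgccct
Of the 5 members and Kdr, windows are described for 4 genes: Pdgfra, Pdgfa, Pdgfc and Kdr. The search for members left out the chromosome that carries Pdgfrb, and no window of Pdgfb was found. The windows of Pdgfra and Kdr each held 4 matches of the core on either strand. Of all 32851 promoter windows of this length in the table, 93.4% held at least 1, with a median of 3, so the core is common. The longer motif CCGGAAG, which contains the core, was found on either strand in 6.91% of all windows and in neither of these. The windows of Pdgfa (2 annotated starts) and Pdgfc were searched too and held 4 core matches each and no CCGGAAG. A match is a description of letters and not a binding site, and the arrays measured RNA only.

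Values are log2 levels from RMA, in which 1 unit is a 2-fold difference, and the median probe set stood at 7.69. The array medians lay between 7.34 and 7.40, the highest being induced 2. Etv2, the induced gene, stood at 13.27, 13.28 and 13.36 in induced arrays 1, 2 and 3 and at 9.92, 8.59 and 10.71 in the controls, so the labels held for every array. Of the 34945 probe sets, 1 (0.00286%), that of the purine salvage gene Hprt, passed limma's adjusted threshold of 0.05, and 1.51% had an unadjusted p under 0.05. Etv2 itself did not pass. Its log2 fold change was 3.56 ± 0.46 (SE), with a limma adjusted p of 0.837, or 0.358 with the replicate number as a block. A probe set that missed this threshold is thus not shown to be unchanged. Separate cultures for the replicates are not stated, so the p-values rest on a spread between arrays that may be technical.

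None of the PDGF receptor and ligand probe sets passed the threshold. The count was 0 of 11 in limma over all probe sets (adjusted p = 0.9997 for each), 0 of 11 at an unadjusted p under 0.05, and 0 of 11 in a fit blocked on replicate number (adjusted p = 0.998). The log2 fold change, induced minus control, was positive in 4 and negative in 7, with a median of -0.12, where 49.1% of all probe sets were negative and the median was 0.0023. The induced arrays lay wholly below the controls in 1 of 11 and wholly above in 0 of 11, against 3.79% and 2.67% of all probe sets. The SD between arrays of the same group, pooled over both groups, was higher in the 3 Pdgfra probe sets than in 99.8%, 97.8% and 98.0% of all probe sets, and in Kdr than in 99.9%.

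**Figure D1:**
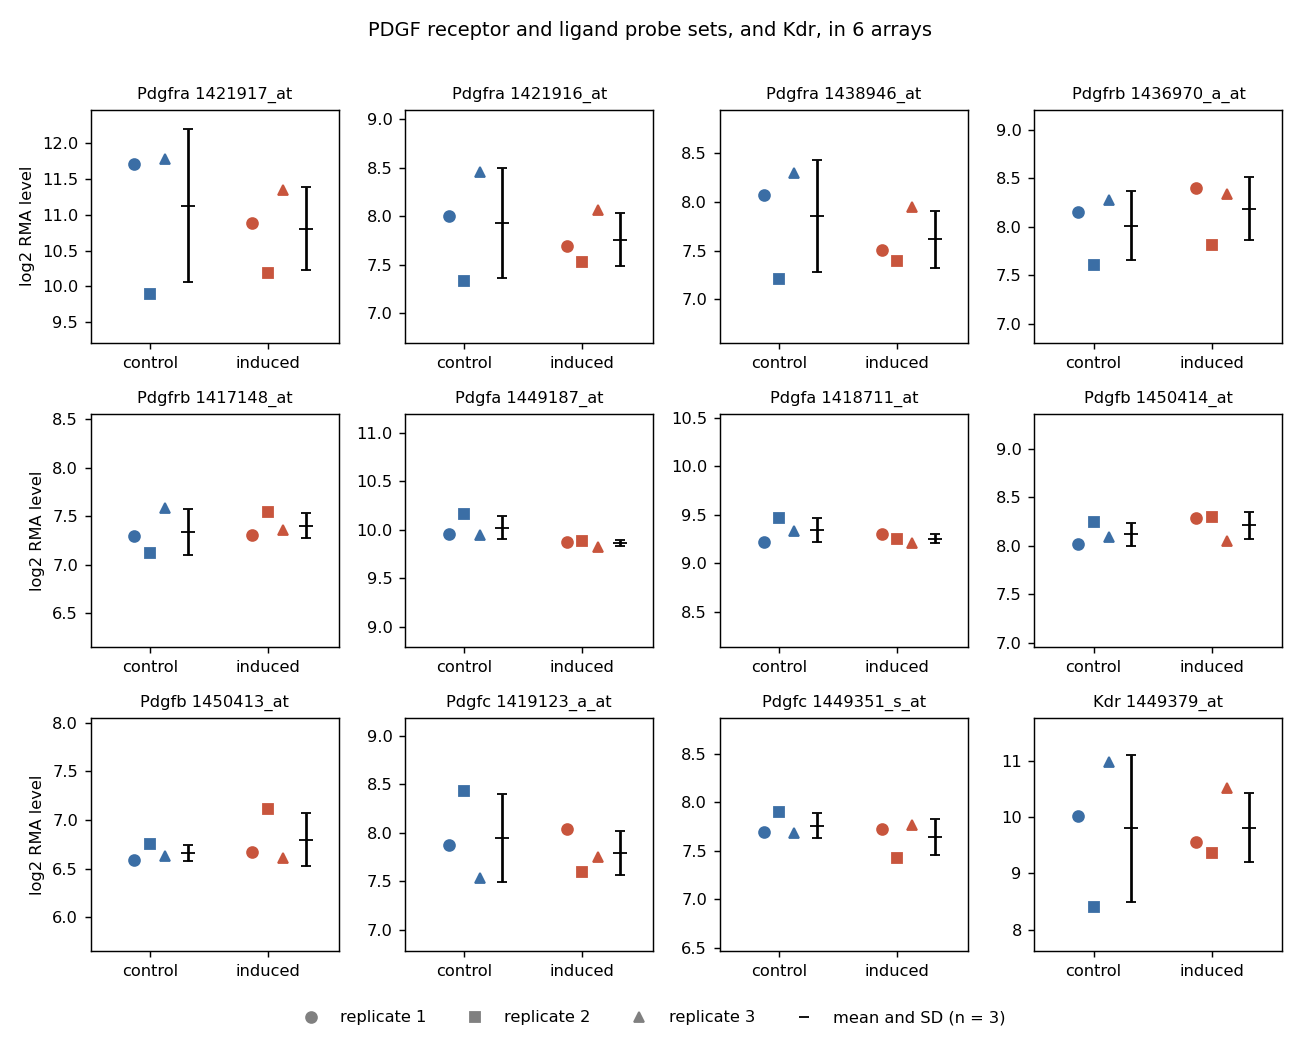
Log2 RMA level (y axis, a separate scale in each panel) of the 11 PDGF receptor and ligand probe sets and of Kdr in 3 control (blue) and 3 induced (red) arrays; marker shapes give the replicate number, and the bar beside each group is its mean and SD. Pdgfra and Kdr are lowest in control 2 and highest in control 3, and the groups overlap in every panel but that of Pdgfa 1449187_at.

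Pdgfra was read by 3 probe sets. The brightest, 1421917_at, stood at 11.71, 9.89 and 11.78 in controls 1, 2 and 3 and at 10.89, 10.18 and 11.34 in induced arrays 1, 2 and 3. All 3 induced values fell inside the control range, which spanned 1.89 log2 units, or 3.70-fold, between control 2 and control 3. The group means were 11.13 ± 1.07 (SD, n = 3) in controls and 10.80 ± 0.58 in induced arrays. The log2 fold change was -0.32 ± 0.52 (SE), a ratio of 0.800 with a 95% interval from 0.347 to 1.84, and the interval covers values on both sides of 1.

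The dimmer Pdgfra probe sets gave the same order of arrays at the extremes. Probe set 1421916_at stood at 8.01, 7.34 and 8.46 in controls and 7.69, 7.53 and 8.06 in induced arrays, a log2 fold change of -0.17 ± 0.27 (SE). Probe set 1438946_at stood at 8.07, 7.20 and 8.30 and at 7.51, 7.39 and 7.95, a log2 fold change of -0.24 ± 0.28. In all 3 probe sets control 2 was lowest and control 3 highest, and induced 2 was the lowest induced array. Over the 6 arrays the probe sets correlated with each other at Pearson r = 0.934, 0.967 and 0.978, as a description. Without control 2 the log2 fold changes of 1421916_at and 1438946_at were -0.47 and -0.57, and without control 3 they were 0.090 and -0.024.

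Compared within replicate numbers, Pdgfra did not move one way. For 1421917_at the induced array was lower than the control of the same number by 0.82 in pair 1 and by 0.44 in pair 3 (log2 differences of -0.82 and -0.44), and higher by 0.29 in pair 2. The other 2 probe sets had the same signs, at -0.32, 0.19 and -0.40 and at -0.57, 0.19 and -0.35 in pairs 1, 2 and 3. With the replicate number as a block, the SE for 1421917_at was 0.20 in place of 0.52, and the log2 fold change of -0.32 had an interval from -0.81 to 0.16. Single arrays set the value: it was -0.94 ± 0.29 (SE) without control 2 (limma adjusted p = 0.976) and 0.0044 ± 0.54 without control 3.

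Pdgfrb, the receptor of pericytes and other mural cells, was read by 2 probe sets that did not follow each other (r = 0.297 over 6 arrays). The brighter, 1436970_a_at, stood at 8.15, 7.61 and 8.27 in controls 1, 2 and 3 and at 8.40, 7.81 and 8.34 in induced arrays. Control 2 and induced 2 were the lowest of their groups, and each induced array was above its same-numbered control, by 0.25, 0.21 and 0.069. The log2 fold change was 0.17 ± 0.21 (SE), and with the block 0.17 with an interval from -0.029 to 0.38 and an unadjusted limma p of 0.0814 (adjusted p = 0.998). Without control 2, the value was -0.027 ± 0.18.

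The other Pdgfrb probe set, 1417148_at, lay below the median level of all probe sets. It stood at 7.30, 7.12 and 7.59 in controls and 7.30, 7.55 and 7.36 in induced arrays, with the groups overlapping. Its log2 fold change was 0.067 ± 0.13 (SE), and without control 2 or without induced 2 it was -0.040 and -0.0053. The order of arrays differed between the 2 probe sets: induced 2 was the lowest induced array in the first and the highest in the second.

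Pdgfa, whose product is a ligand of PDGFRα, varied little. Probe set 1449187_at stood at 9.96, 10.16 and 9.95 in controls 1, 2 and 3 and at 9.88, 9.89 and 9.82 in induced arrays. It was the 1 member whose induced arrays all lay below all controls, though the gap between control 3 and induced 2 was small beside the spread of the controls. Its log2 fold change came to -0.16 ± 0.086 (SE), a ratio of 0.896 with an interval from 0.780 to 1.03 (limma unadjusted p = 0.103, adjusted p = 0.9997). Probe set 1418711_at, at 9.22, 9.47 and 9.33 in controls and 9.30, 9.25 and 9.21 in induced arrays, overlapped between the groups, with a log2 fold change of -0.087 ± 0.088. Without control 2, the highest array in both, the values were -0.089 and -0.023.

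Pdgfb, the ligand that endothelial cells make to draw pericytes to vessels, was near or below the median level. Probe set 1450414_at stood at 8.01, 8.25 and 8.09 in controls and 8.28, 8.30 and 8.05 in induced arrays, which overlap. The log2 fold change was 0.094 ± 0.10 (SE), a ratio of 1.07 with an interval from 0.903 to 1.26. Probe set 1450413_at, below the median of all probe sets, stood at 6.59, 6.75 and 6.63 and at 6.67, 7.11 and 6.60. Its log2 fold change of 0.14 ± 0.14 rested on induced 2, the array with the highest median, and without that array it was -0.019 ± 0.080.

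Pdgfc encodes a ligand with a CUB domain that must be cut off before it binds PDGFRα. Probe set 1419123_a_at stood at 7.87, 8.43 and 7.53 in controls and 8.04, 7.60 and 7.75 in induced arrays. Here control 2 was the highest of all 6 arrays, where for Pdgfra it was the lowest. The log2 fold change was -0.15 ± 0.22 (SE), and without control 2 it was 0.093 ± 0.16. Probe set 1449351_s_at stood at 7.69, 7.90 and 7.68 and at 7.72, 7.43 and 7.76, with a log2 fold change of -0.12 ± 0.12. Pairs 1 and 3 were higher in the induced array and pair 2 lower, in both Pdgfc probe sets, and without both arrays numbered 2 the values were 0.19 and 0.058.

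**Figure D2:**
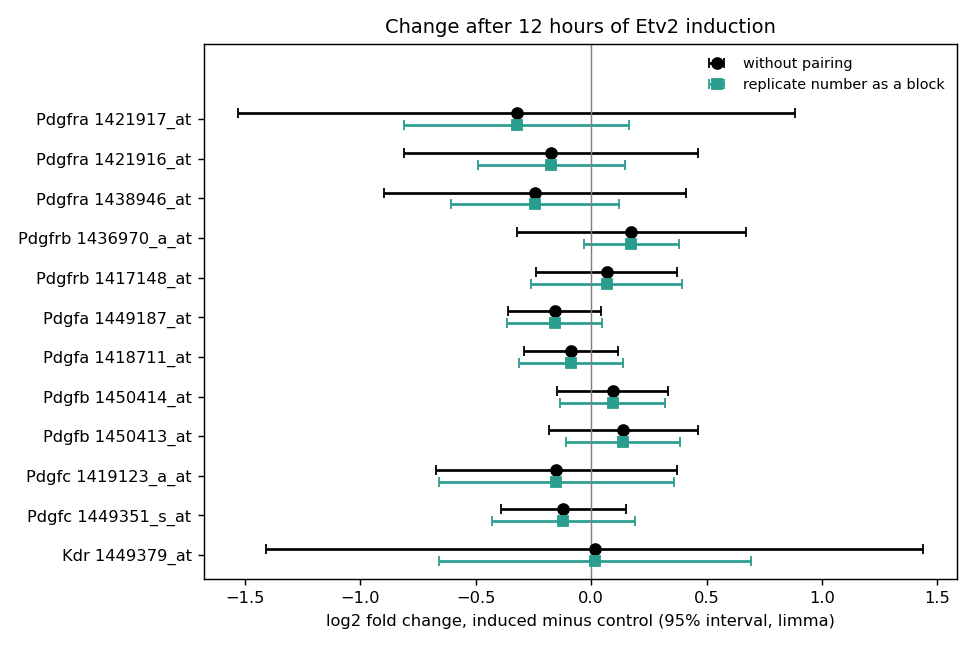
Log2 fold change, induced minus control (x axis), with its 95% interval from limma, for each PDGF receptor and ligand probe set and Kdr (y axis), without pairing (black circles) and with the replicate number as a block (green squares), from 3 arrays a group. Every interval spans 0; that of Pdgfra 1421917_at runs from -1.53 to 0.88 without pairing and from -0.81 to 0.16 with it.

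Pdgfra was set beside Kdr to see whether induction moved one mesoderm marker against the other. Kdr stood at 10.02, 8.40 and 10.97 in controls 1, 2 and 3 and at 9.56, 9.36 and 10.52 in induced arrays, a log2 fold change of 0.016 ± 0.61 (SE). Because cells were sorted on its protein, a change of Kdr between groups would describe the gate as much as the cells. As in Pdgfra, control 2 was lowest and control 3 highest. In bulk samples such as these, fewer Pdgfra-expressing cells and less Pdgfra RNA per cell cannot be told apart.

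The difference between the 2 genes on the same array, Pdgfra 1421917_at minus Kdr, has no meaning as a level, but its shift between groups compares their changes. It was 1.68, 1.49 and 0.81 in controls and 1.32, 0.82 and 0.82 in induced arrays. The means were 1.33 ± 0.46 (SD, n = 3) and 0.99 ± 0.29, a shift of -0.34, and the groups overlapped. The shift was -0.16 without control 1 and -0.60 without control 3, with exact permutation p of 0.7 and 0.2. An exact two-sided permutation test gave p = 0.4, where 0.1 is the smallest that 3 against 3 arrays can give. With the other Pdgfra probe sets the shift was -0.19 (exact p = 0.9) and -0.26 (exact p = 0.6).

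A fit with the Kdr level of each array as a covariate, chosen after the data were seen, gave narrower intervals. At equal Kdr, Pdgfra 1421917_at had a log2 fold change of -0.34 ± 0.20 (SE), with an interval from -0.81 to 0.14. The values were -0.18 ± 0.076 for 1421916_at (limma unadjusted p = 0.0483) and -0.25 ± 0.087 for 1438946_at (0.0214). These are 2 of the 11 probe sets at an unadjusted p under 0.05, against 3.11% of all probe sets in that fit, and none of the 11 passed the adjusted threshold (adjusted p = 0.996), which 0.00572% of all probe sets did. The 3 probe sets read 1 gene in the same 6 arrays and are not separate evidence.

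Across the 6 arrays Pdgfra and Kdr were high and low together. Pearson r was 0.904 (exact permutation p = 0.0125) and Spearman rho 0.943 (exact permutation p = 0.0167) for 1421917_at. As 1 of 5 member genes set against Kdr, its adjusted values were 0.0625 and 0.0833, which miss 0.05. The other 2 Pdgfra probe sets, outside that family of 5, gave r = 0.968 (exact permutation p = 0.00417) and 0.935 (exact permutation p = 0.00833). Without control 2 and control 3, the 2 arrays farthest from the median of Kdr, r was 0.768, 0.948 and 0.847 over 4 arrays for 1421917_at, 1421916_at and 1438946_at. For 1421917_at that is an exact permutation p of 0.25. With 4 arrays few pairings exist and p rises from the loss of arrays alone, so it cannot show what the unadjusted call rests on. Within groups, taken as deviations from each group's mean, r was 0.930 for 1421917_at, so the relation did not come from the difference between groups. Without both arrays numbered 2 it was 0.721 (exact permutation p = 0.208). The sign of r was the same in every one of these settings.

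**Figure D3:**
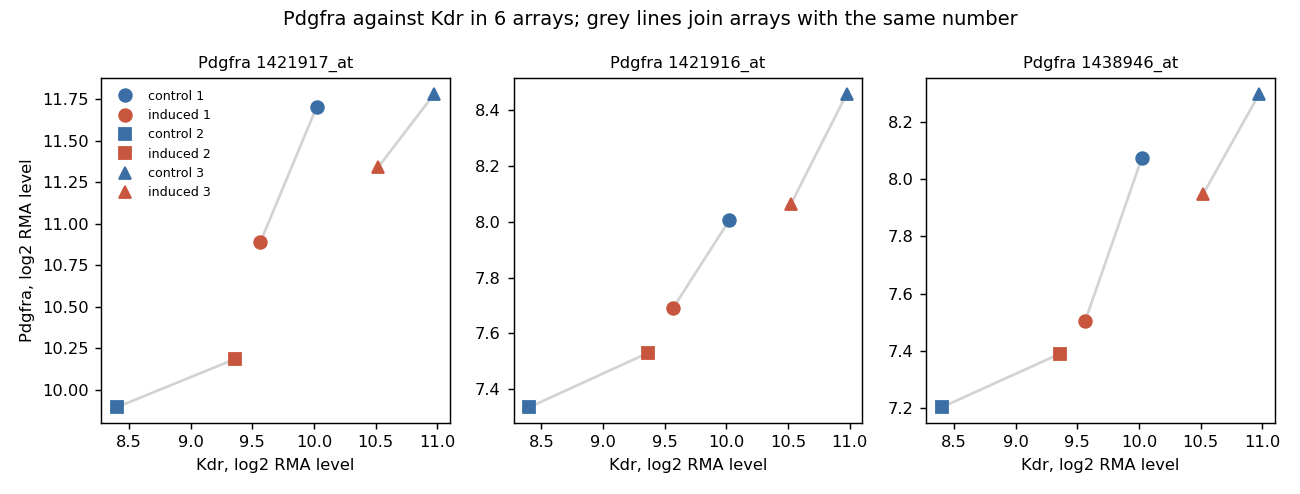
Log2 RMA level of the 3 Pdgfra probe sets (y axis, 1 per panel) against Kdr (x axis) in 3 control (blue) and 3 induced (red) arrays, with grey lines joining arrays of the same replicate number. In every panel control 2 is at the lower left and control 3 at the upper right, with r = 0.904, 0.968 and 0.935 from left to right.

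The other receptor and the ligands were set against Kdr in the same way. Pdgfrb 1436970_a_at had r = 0.778 with Kdr (exact permutation p = 0.0708, adjusted 0.118; rho = 0.600, p = 0.242, adjusted 0.302), which fell to 0.532 without control 2 and control 3. The 3 ligand genes had negative values: r was -0.633 for Pdgfa (exact permutation p = 0.179, adjusted 0.179), -0.707 for Pdgfb (p = 0.126, adjusted 0.158) and -0.790 for Pdgfc (p = 0.0597, adjusted 0.118). Their rho values were -0.371, -0.600 and -0.657 (adjusted exact p = 0.497, 0.302 and 0.302). None of the 5 relations passed 0.05 after adjustment. Without control 2 and control 3, r was -0.332 for Pdgfa, -0.871 for Pdgfb and 0.024 for Pdgfc. Without both arrays numbered 2, r was -0.246 for Pdgfrb, 0.165 for Pdgfa, -0.584 for Pdgfb and -0.993 for Pdgfc. In these probe sets, the brighter of each gene, the sign thus turned with the arrays used for Pdgfrb, Pdgfa and Pdgfc. It stayed negative in both subsets of 4 for Pdgfb. The dimmer probe sets differed in part. Pdgfrb 1417148_at had r = 0.652, then -0.500 without control 2 and control 3 and 0.855 without both arrays numbered 2. In the same order, Pdgfc 1449351_s_at had -0.208, 0.73 and -0.153. Pdgfa 1418711_at had -0.597, -0.707 and 0.14, and Pdgfb 1450413_at -0.467, -0.731 and -0.345.

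The means of some marker lists moved between arrays along with Pdgfra, and those of others did not. As a description, r with Pdgfra was 0.990 for the primitive streak mean, 0.908 for the paraxial mean and -0.713 for the endothelial mean. It was 0.881 for the primitive and visceral endoderm mean, 0.874 for the mural mean, 0.778 for the lateral mesoderm mean and -0.922 for the undifferentiated ES mean. With Kdr, r was 0.929 for the streak mean, 0.941 for the paraxial mean and 0.967 for the lateral mesoderm mean. For 7 primitive streak genes (1 more gene of the list was not analysed here) the mean log2 level by array was 11.69, 11.05 and 11.70 among the controls, against 11.42, 11.26 and 11.59 after induction. For 14 paraxial mesoderm genes it was 8.71, 7.98 and 8.87, against 8.29, 8.39 and 8.58. Both list means were lowest in control 2. Of the streak genes, Fgf8 ran against Pdgfra at r = -0.64, while Mixl1, Eomes, Mesp1, Gsc, Wnt3 and Lhx1 were positive. Single paraxial genes differed: Tcf15 ran against Pdgfra at r = -0.9955, and Msgn1, Meox1, Meox2, Pax3 and Hes7 were negative too. Tbx6, Foxc1, Foxc2, Mesp1, Mesp2, Dll1, Dll3 and Lfng were positive. The brightest streak genes, Mixl1 and Eomes, had log2 fold changes of 0.014 ± 0.15 (SE) and -0.10 ± 0.10. The mean of 8 genes of undifferentiated ES cells ran the other way, at 10.50, 10.85 and 10.34 and at 10.70, 10.71 and 10.58. Of those 8, 7 had a mean over the 6 arrays above the median over all genes, 8.25. The brightest, Tdgf1 and Pou5f1, had log2 fold changes of 0.022 ± 0.094 (SE) and 0.23 ± 0.18, and Zfp42 had the largest, 0.27 ± 0.40. Tdgf1, which encodes a Nodal co-receptor, did not share the list's direction: as a description, it correlated with Pdgfra at r = 0.838 over the 6 arrays, against -0.743 for Pou5f1 and -0.865 for Zfp42. Klf4 was positive too, at r = 0.644, while Nanog, Esrrb, Dppa5a and Fgf4 were negative. Primitive and visceral endoderm also expresses Pdgfra, and 4 of its 10 markers lay above the median level. Of these, Gata4, Gata6 and Sox17, which nascent mesoderm and definitive endoderm share, correlated with Pdgfra at r = 0.912, 0.960 and 0.864 over the 6 arrays. Ttr, the other one, ran against it at r = -0.464. Among the dimmer markers r was negative for Amn, Afp and Apoa1 and positive for Sox7, Dab2 and Cubn. The list's mean ran from 7.46 to 8.23 in controls and from 7.87 to 8.15 in induced arrays. Its log2 fold changes were positive in 8 of 10 and negative in 2 (median 0.066), and 0 were called. The Flk1 gate would remove those of these cells that lack the protein. Their part in the Pdgfra values was not tested.

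Markers of endothelial cells, the source of PDGF-B in vessels, were mostly dim, with 1 of 9 above the median over all genes, and their mean ran from 6.71 to 6.85 in controls and from 6.82 to 7.04 in induced arrays. Log2 fold changes were positive in 8 of 9 and negative in 1 (median 0.069), where 48.9% of all genes were negative, and 0 were called. Egfl7 was the one above the median level, and its log2 fold change, the negative one, came to -0.011 ± 0.10 (SE). Esam came next in level, with 0.068 ± 0.11, while Ecscr, with the largest change in the list, stood at 6.59 in controls and 6.94 in induced arrays, a log2 fold change of 0.36 ± 0.10 (SE; limma adjusted p = 0.9997). Mural markers had 5 of 9 above the median, with a mean from 8.57 to 8.97 in controls and from 8.69 to 8.91 in induced arrays. Rgs5, a pericyte gene, was at 8.13, 6.62 and 8.71 and at 7.31, 6.64 and 8.49, low in both arrays numbered 2, and its log2 fold change came to -0.34 ± 0.60 (SE). It had the largest change of the list, in which 6 of 9 were positive. Tagln, a smooth muscle gene and one of the 2 brightest, stood at 11.11, 11.23 and 11.06 in controls and 11.48, 11.41 and 11.41 in induced arrays, all above the controls, a log2 fold change of 0.30 ± 0.079 (SE; limma unadjusted p = 0.00607, adjusted p = 0.9997). Notch3, the other, had 0.040 ± 0.12 and correlated with Pdgfra at r = -0.813 over the 6 arrays, where Rgs5 had 0.948. The part of these cells in the Pdgfrb and Pdgfb values was not tested.

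**Figure D4:**
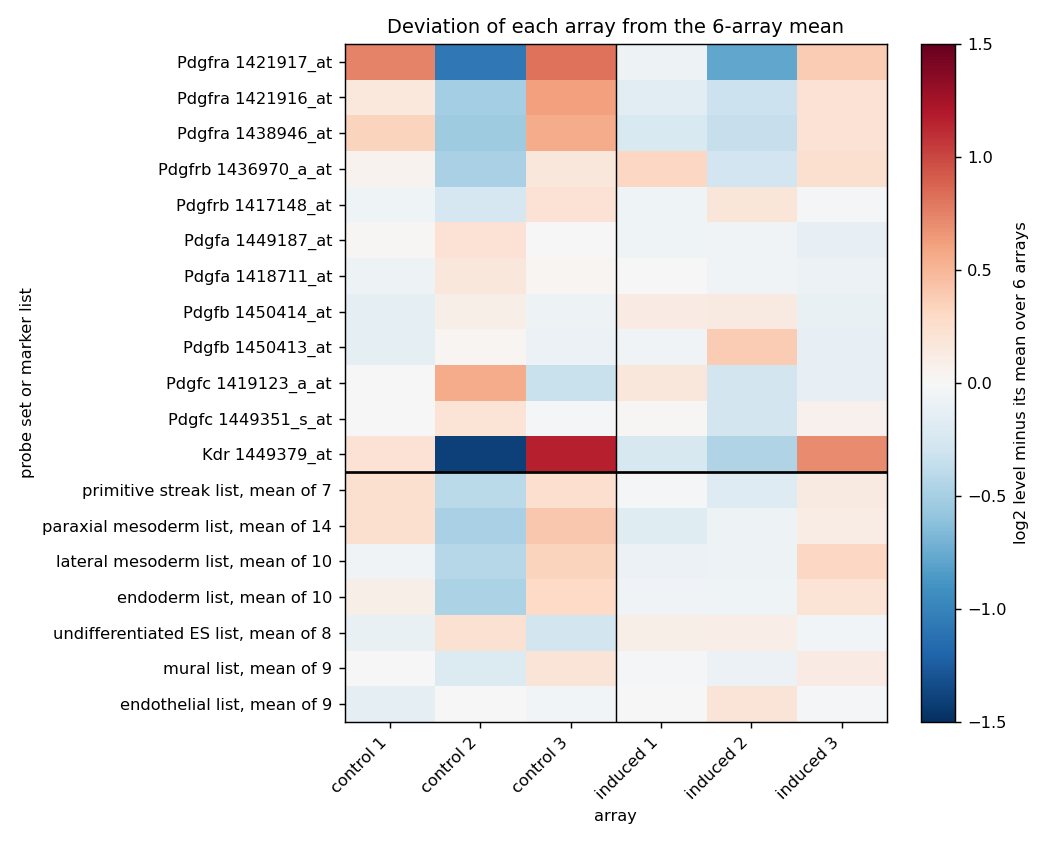
Deviation of each array (columns, 3 control and 3 induced) from the 6-array mean, in log2 units by colour, for the PDGF receptor and ligand probe sets and Kdr (rows above the line) and for the mean of 7 marker lists (rows below it). Control 2 is blue in Pdgfra, Kdr and the mesoderm lists and red in Pdgfa, Pdgfc and the undifferentiated ES list; control 3 shows the opposite in Pdgfra, Kdr and the mesoderm and ES lists.

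Genes whose levels followed each member most closely over the 6 arrays were ranked by Pearson r, among 463 genes for Pdgfra and 464 for the others that lay above the median level and varied with an SD of at least 0.3. High values are what a search of this kind returns with 6 points, and they carry no test. For Pdgfra the nearest was Jag1, a Notch ligand gene (r = 0.996), at 11.64, 10.85 and 11.75 in controls and 11.29, 10.94 and 11.46 in induced arrays. Next came Lzts1 (0.992), Bambi, a decoy receptor of the TGF-beta family (0.989), the semaphorin gene Sema6d (0.987) and the imprinted gene Peg3 (0.980). Kdr ranked 124 of the 463, so many genes followed Pdgfra more closely than Kdr did.

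The lists of the other members held different genes. Pdgfrb was followed by Igf2, the growth factor gene (r = 0.957), Pwwp3b (0.955), Vldlr (0.935), B3gnt5 (0.931) and Egln3 (0.923). Pdgfa was followed by Car4 (0.920), the retinoic acid binding protein gene Crabp2 (0.877), Podxl (0.873), Fam184b (0.864) and Nefm (0.848). The genes nearest to Pdgfb were Adam23 (0.963), Bcam (0.940), Cyfip2 (0.937), Hebp1 (0.900) and Cbx7 (0.899). Those nearest to Pdgfc were Ugt8a (0.963), Ell2 (0.939), Kcnj3 (0.935), Tmem30b (0.935) and the matrix protein gene Ccn2 (0.929).

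Pdgfra lies in a row of receptor tyrosine kinase genes, followed by Kit and Kdr in the RefSeq order. The 5 measured genes on either side were Scfd2, Fip1l1, Lnx1, Chic2 and Gsx2 before it, and Kit, Kdr, Srd5a3, Tmem165 and Clock after it. None of the 10 passed the threshold in limma (0.0055% of all genes did), none had an unadjusted p under 0.05, and 3 had positive and 7 negative log2 fold changes, with a median of -0.019. Kit, the stem cell factor receptor gene that sits between Pdgfra and Kdr, did not share their array pattern: it stood at 9.87, 10.23 and 10.14 in controls and 10.23, 10.38 and 9.96 in induced arrays. Its log2 fold change was 0.11 ± 0.14 (SE). The brightest neighbours, Tmem165 and Chic2, had log2 fold changes of -0.015 ± 0.076 and -0.028 ± 0.083. Gsx2, the homeobox gene next to Pdgfra, had the largest difference, -0.20 ± 0.087, with the induced arrays wholly below the controls at levels under the median of all genes.

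The rest of the PDGF pathway showed no call. Over 133 measured genes in 15 pathway and marker lists, neighbours included and Kdr left out, limma called 0, with or without the replicate block, against 0.0055% of all genes in each fit. An unadjusted p under 0.05 was found for 6 of the 133, against 1.51% of all genes. In these lists 66 log2 fold changes were positive and 67 negative (median -0.00079, against 0.0026 for all genes). In the family outside the members, the ligand gene Pdgfd was dim, with a mean of 4.79 in each group. Pdgfrl, which encodes a receptor-like protein, stood at 8.63, 8.11 and 8.24 in controls and 8.67, 8.67 and 8.71 in induced arrays. All 3 induced values lay above the controls, with a log2 fold change of 0.35 ± 0.13 (SE; limma unadjusted p = 0.0297, adjusted p = 0.9997).

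Related receptors and co-receptors likewise held no call. Among the kinases nearest in structure (Kit, Csf1r, Flt3, Kdr, Flt1 and Flt4), 5 of 6 had positive log2 fold changes with a median of 0.038, and 0 were called. Flt1, a VEGF receptor gene, had 0.12 ± 0.11 (SE). Nrp1, a co-receptor for VEGF that also binds PDGF, shared the spread of Kdr, at 8.63, 6.63 and 9.63 in controls and 8.21, 7.54 and 9.80 in induced arrays, a log2 fold change of 0.22 ± 0.81. Lrp1, a co-receptor of PDGFRβ, had -0.14 ± 0.14, and Sparc, a matrix protein that binds PDGF-B, 0.00038 ± 0.081. Of the proteases that process PDGF chains and other precursors, 4 of 6 were positive and 0 called, with Furin at 0.023 ± 0.090 and Pcsk7 at -0.16 ± 0.10.

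Downstream of the receptors, adaptors and effectors leaned negative without any call. Of 27 measured members 6 were positive and 21 negative, with a median of -0.049, against 48.9% negative among all genes. The other 5 genes of that list were not analysed here. The Ras exchange factor gene Sos1 had the largest difference, -0.18 ± 0.11 (SE), and its induced arrays lay below the controls at 10.41, 10.07 and 10.40 against 10.46, 10.43 and 10.51. Nras had -0.063 ± 0.076 and the adaptor gene Crk -0.16 ± 0.10. The mean level of the list was lowest in induced 2, at 10.13, and lay between 10.21 and 10.29 in the other 5 arrays.

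Negative regulators and early response genes gave no call either. Phosphatases, ubiquitin ligases and feedback inhibitors had 4 of 11 positive and a median of -0.024, with Dusp6, a MAP kinase phosphatase gene, at 0.0014 ± 0.086 (SE), Acp1 at 0.029 ± 0.068 and the receptor phosphatase gene Ptprj at -0.20 ± 0.17. Of 6 immediate-early genes that PDGF is known to induce in fibroblasts, 3 were positive and 3 negative. Egr1 stood at 10.98, 10.69 and 11.08 in controls and 10.44, 10.12 and 10.78 in induced arrays, lower in each of the 3 pairs though the groups overlap, with a log2 fold change of -0.47 ± 0.18 (limma unadjusted p = 0.0305, adjusted p = 0.9997). Myc had -0.26 ± 0.18 and Ier2 0.0095 ± 0.10.

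Among mesoderm markers beside Pdgfra and Kdr, 0 were called. Paraxial genes were positive in 5 of 14 (median -0.063), with Mesp1 at a log2 fold change of -0.26 ± 0.45 (SE), Mesp2 at -0.45 ± 0.35 and Dll3 at -0.063 ± 0.42. Lateral mesoderm and haemangioblast genes were positive in 5 of 10 (median 0.040). In that list Lmo2, a cofactor gene of blood and endothelium, had 0.81 ± 0.12, with all 3 induced arrays above all controls (limma unadjusted p = 1.73e-04, adjusted p = 0.944), while the apelin receptor gene Aplnr had -0.042 ± 0.38 and Gata2 0.13 ± 0.27. The SE was smaller for Lmo2 than for Pdgfra 1421917_at and Kdr, at 0.52 and 0.61, and a change as large as that of Lmo2 lies inside the intervals of both, from -1.53 to 0.88 and from -1.41 to 1.44.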

How the data were processed

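The deposited values are log2 levels per probe set, made by the authors with RMA (submitters' processing notes), which corrects background, makes the array distributions equal and combines the probes of a set. The version and probe build are not given in the sources, and scanner files were not used. Dim levels are compressed by background, so their differences are understated.

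Probe sets were named through the platform annotation: of 45101, 34958 had 1 symbol, 932 several and 9211 no entry. After 13 Affymetrix controls were removed, 34945 were tested, with no filter on level. Gene lists used the probe set with the highest mean of each of 18193 genes. Of these, 16465 matched a protein-coding gene of RefSeq (GRCm38.p6) by Entrez identifier, which served only for the order of neighbouring genes.

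Induced and control arrays, 3 each, were compared with limma 3.58.1 in R 4.3.3 (lmFit, eBayes, two-sided, Benjamini-Hochberg over all 34945, threshold 0.05). The fit was checked on simulated data with independent noise in each probe set, so that check does not cover variation shared between probe sets. Single values used exact permutation tests (scipy 1.17.1). The replicate numbers were treated as pairs because deviations from the group means correlated over probe sets at r = 0.236, 0.178 and 0.273 for numbers 1, 2 and 3, all over 0.1, although the labels name no shared day or culture. Of the 6 unmatched pairs 2 correlated more than number 2 did, control 2 with induced 1 at 0.215 and control 1 with induced 3 at 0.210. The reported fit has no pair term.

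Named are every probe set of the members, Kdr and Etv2. From each list come the members past the threshold or, with none, the 2 of highest level and the 1 of largest change. For each member the 5 genes of highest r over the arrays are named, clone names left out. Members, lists and rules were chosen with earlier results of these data known.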

Additional observations from a re-analysis of the deposited data

How the results depend on the processing

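Over 10 settings that kept all 6 arrays, namely the replicate block, 1 probe set or the mean of probe sets per gene, a filter at the median level, all probe sets of the table, quantile normalization, median centring, array weights, a trended prior and the Kdr covariate, 96 of 96 member values kept their direction and their side of the threshold, at adjusted p of 0.996 or more. Many of these directions were fixed in advance. The block, 1 probe set per gene, the median filter, all probe sets and the trended prior leave each log2 fold change as it was and alter only its SE and p. With the replicate block 0 members and 0 list genes were called, as without it, and the block changed no call of a member. The Pdgfra minus Kdr shift of -0.34, which the block cannot change, had an exact permutation p of 0.5 (smallest possible 0.25). Kdr turned from 0.016 to -0.0059 under median centring. The count called over all probe sets, 1, was 2 with Kdr as a covariate, Etv2 being the other; that covariate was added after seeing the data. Leaving out arrays singly or by number, that count ran from 0 to 1, and members called stayed at 0 in all 9 such settings. Log2 fold changes then ran from -0.94 to 0.0044 for Pdgfra 1421917_at and from -0.47 to 0.090 for 1421916_at, and from -0.57 to -0.024 for 1438946_at. They ran from -0.027 to 0.36 for Pdgfrb 1436970_a_at, from -0.11 to 0.22 for 1417148_at, from -0.019 to 0.23 for Pdgfb 1450413_at, from -0.36 to 0.19 for Pdgfc 1419123_a_at, from -0.22 to 0.058 for 1449351_s_at and from -0.68 to 0.60 for Kdr. The Pdgfra minus Kdr shift ran from -0.60 to -0.16. The cause of these turns was not tested. The correlation of Pdgfra 1421917_at with Kdr missed 0.05 without the 2 arrays farthest in Kdr (r = 0.768) and without both arrays numbered 2 (r = 0.721), each over 4 arrays and chosen after the data were seen. Signal over background could not be assessed without the scanner files.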
